A study of Homo sapiens with 4 samples.

Results

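The 10 genes described here encode beta-catenin (CTNNB1), its destruction complex (APC, AXIN1, AXIN2), the TCF and LEF transcription factors (TCF7, TCF7L2, LEF1) and feedback inhibitors of WNT signalling (DKK1, RNF43, ZNRF3). They were taken by gene name from the deposited count tables, where each name matched 1 of 58735 genes, and 9 of the 10 had enough counts to be tested. RNA was sequenced from HCT116, an established human colon cancer line, carrying an shRNA against RBM25 (RBM25 sh, 2 libraries) or a control shRNA (Control sh, 2 libraries). All 4 libraries came from cells in McCoy's 5A medium with serum and no further agent. No source used here states the shRNA sequences, the time after knockdown or whether the cells were pooled or cloned. Nor do the labels call the replicates separate cultures, so the p-values speak for the spread among these 4 libraries alone, and that spread may be technical.

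In the absence of WNT ligand, APC and the axins hold beta-catenin next to the kinases that mark it for destruction. When a ligand binds Frizzled and LRP receptors, the complex is inhibited, beta-catenin accumulates, and with a TCF or LEF factor it activates genes such as AXIN2. Several targets act back on the pathway: AXIN2 rebuilds the destruction complex, DKK1 blocks LRP receptors, and RNF43 and ZNRF3 remove Frizzled receptors from the surface. Most colon cancers lose APC, whereas HCT116 is known to keep APC and to carry an activating CTNNB1 mutation. RBM25 is an RNA-binding protein that takes part in the choice of splice sites.

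Counts per gene summed to between 15528274 and 16982663 per library. RBM25 itself had 657 and 560 counts in the RBM25 sh libraries, against 2456 and 2059 in the Control sh libraries (3.39-fold lower, edgeR adjusted p = 0.0195). That adjusted p was 0.119 without RBM25 sh replicate 1 and 0.202 without RBM25 sh replicate 2, and ran from 4.22e-22 to 0.202 over 21 alternative settings. The lowest of these came from a fit with a replicate block, and the labels do not say what the replicate number marks. Of the colon epithelial markers, EPCAM stood at 114.8 and 94.1 FPKM (counts relative to gene length and library size, as deposited) in the RBM25 sh libraries and at 109.8 and 102.3 FPKM in the Control sh libraries. KRT8, KRT18, KRT19 and CDH1 were also abundant, and the intestinal factor gene CDX2 had 158 and 282 counts in RBM25 sh and 191 and 275 in Control sh. Of the markers of differentiation, KRT20 had 35 and 31 counts in RBM25 sh and 17 and 3 in Control sh, and VIL1, CDX1 and LGALS4 had at most 5 in any library. Of 16 markers of immune, endothelial and stromal cells, 10 had under 10 counts in every library. Their summed level was 5.61 and 7.27 FPKM in RBM25 sh and 6.41 and 9.17 FPKM in Control sh, of which COL1A1 made up the most.

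Levels of a gene across libraries are given as CPM (counts relative to the library's total, corrected by TMM factors), and changes as log2 fold changes of RBM25 sh over Control sh ± SE. A gene was called when its edgeR adjusted p over all 16091 genes tested was under 0.05. Of the 9 members tested, 1 was called higher and none lower. Over all genes tested 0.653% were called higher and 2.40% lower, 3.05% together, so the members' share rests on a single gene, AXIN2. At an unadjusted p under 0.05 there were 4 members higher and none lower, where 7.92% of all genes tested were higher and 13.5% lower. DESeq2 and limma-voom also called 1 member higher and none lower, and over all genes tested DESeq2 called 2.4% higher and 4.34% lower and limma-voom 0.522% higher and 1.8% lower. The members' median log2 fold change was 0.32, beside −0.04 over all genes tested. The groups did not overlap in CPM for 8 of the 9 members, where 51.8% of all genes tested did not overlap.

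**Figure D1:**
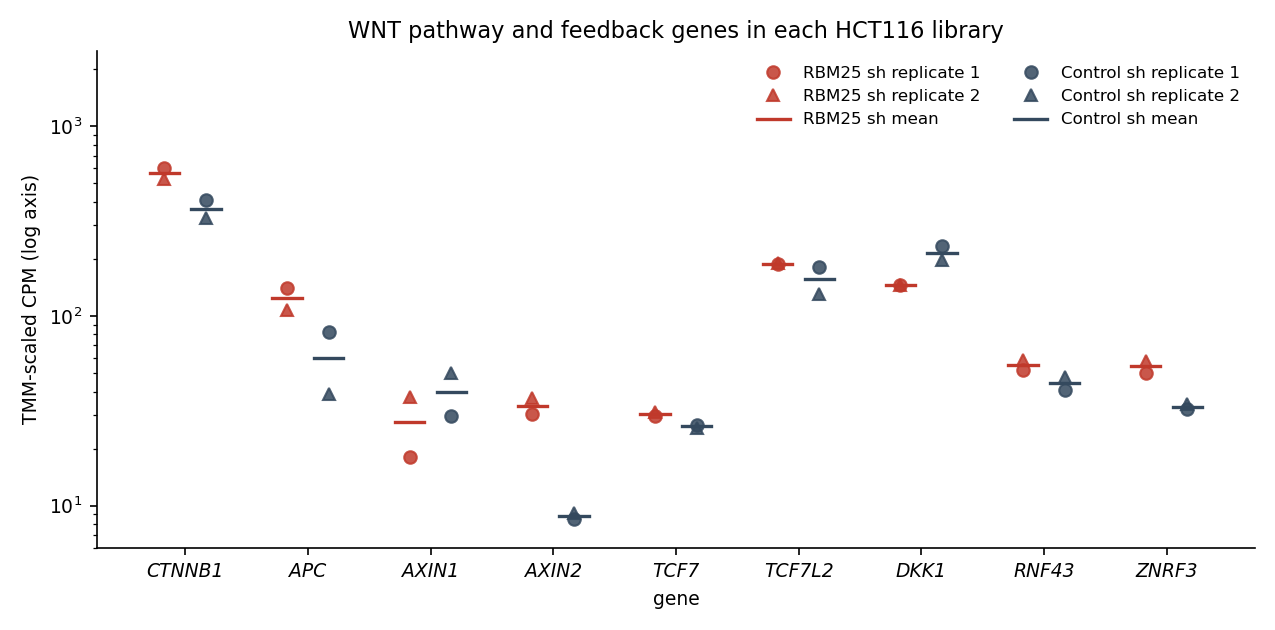
TMM-scaled CPM (log axis) of the 9 tested members in each library, RBM25 sh to the left of Control sh in each pair, with circles for replicate 1, triangles for replicate 2 and a line at the mean of the 2 libraries. AXIN2 lies at 30.6 and 36.8 CPM in RBM25 sh and at 8.54 and 9.21 CPM in Control sh, and AXIN1 is the member whose groups overlap.

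AXIN2 was the member that changed most. Its product is a scaffold of the destruction complex, and its transcript is widely used as a readout of beta-catenin activity. AXIN2 (ENSG00000168646, GRCh38 chromosome 17, 65528563 to 65561647, minus strand) had 456 and 577 counts in the RBM25 sh libraries, against 135 and 165 counts in the Control sh libraries. Scaled, these were 30.6 and 36.8 CPM in RBM25 sh and 8.54 and 9.21 CPM in Control sh, so both RBM25 sh libraries lay far above both Control sh libraries. The mean was 33.7 ± 4.39 CPM in RBM25 sh and 8.87 ± 0.472 CPM in Control sh (SD, n = 2 each), and the fitted fold was 3.79. In bulk RNA, more transcript per cell and more cells that express a gene cannot be told apart. The log2 fold change was 1.92 ± 0.30 with an edgeR adjusted p of 0.0157. AXIN2 passed the threshold under each of 21 alternative settings, at log2 fold changes between 1.48 and 2.08 and adjusted p-values between 3.55e-20 and 0.0432. The lowest of these p-values came from the fit with a replicate block, and the labels do not say what the replicate number marks. AXIN2 shares 1316 exonic bases with AC004805.1, a gene on the same strand with 0 counts in every library, so reads from those bases are uncertain.

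AXIN1, the constitutive paralog of AXIN2, was not called. In RBM25 sh, AXIN1 (ENSG00000103126, on the minus strand of chromosome 16, 287440 to 352673) had 18.0 and 37.2 CPM, with 29.6 and 50.04 CPM in Control sh, and the groups overlapped. Replicate 2 was the higher library in both groups. The log2 fold change of −0.53 ± 0.40 was not called (edgeR adjusted p = 0.482), and it ranged from −1.10 to −0.08 when 1 library was left out.

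The 2 paralogs could be compared within each library, where scaling between libraries plays no part. The ratio of AXIN2 to AXIN1 in FPKM was 2.43 and 1.42 in the RBM25 sh libraries, against 0.413 and 0.264 in the Control sh libraries. By FPKM, AXIN2 was thus above AXIN1 in both RBM25 sh libraries and below it in both Control sh libraries. In RBM25 sh replicate 2 this lead depends on the deposited gene lengths, 5226 bases for AXIN2 and 7487 for AXIN1. The counts there were 577 for AXIN2 and 584 for AXIN1. The difference in the ratio between the groups does not depend on the lengths. The mean log2 ratio was 0.89 ± 0.55 in RBM25 sh and −1.60 ± 0.46 in Control sh (SD, n = 2 each), a difference of 2.49, or 5.62-fold. An exact two-sided permutation test over the libraries gave p = 0.333, the smallest that 2 libraries against 2 can give.

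**Figure D2:**
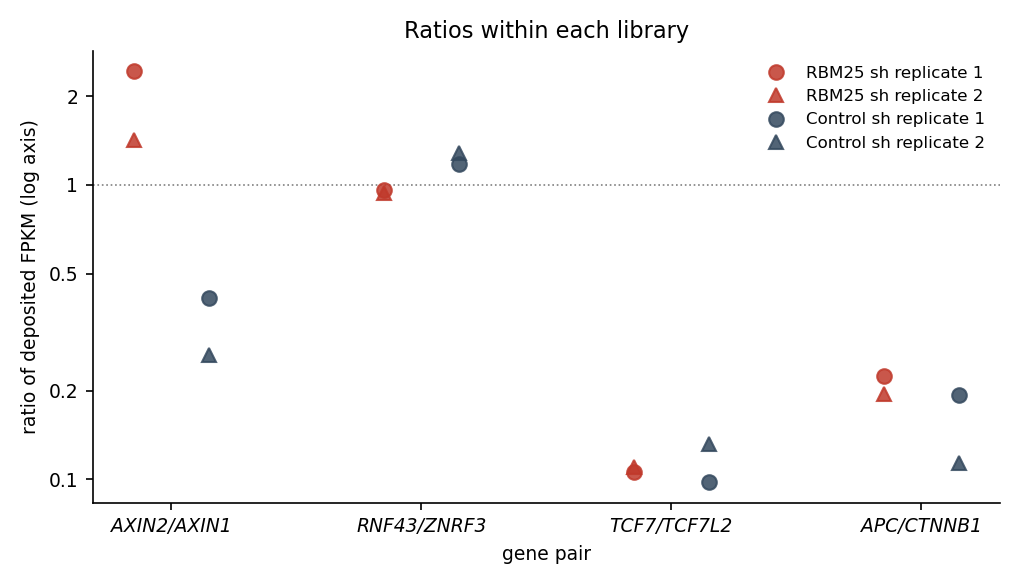
Ratio of the deposited FPKM of 2 genes within each library (log axis), RBM25 sh to the left of Control sh for each gene pair, with circles for replicate 1 and triangles for replicate 2. The AXIN2 to AXIN1 ratio lies above 1 in both RBM25 sh libraries (2.43 and 1.42) and below 1 in both Control sh libraries (0.413 and 0.264).

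APC, the scaffold whose loss starts most colon tumours, had more counts in RBM25 sh but also the widest spread in Control sh. APC (ENSG00000134982, chromosome 5, 112707498 to 112846239, plus strand) had 141 and 108 CPM in RBM25 sh, against 82.0 and 38.8 CPM in Control sh. The groups did not overlap, but the Control sh libraries differed from each other more than the nearest RBM25 sh and Control sh libraries did. The log2 fold change was 1.04 ± 0.37 and not called (edgeR adjusted p = 0.148). It was 1.69 without Control sh replicate 1, where it was called (edgeR adjusted p = 3.39e-04), and 0.60 without Control sh replicate 2.

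CTNNB1, which encodes beta-catenin itself, showed a smaller difference. CTNNB1 (ENSG00000168036, chromosome 3, 41194741 to 41260096, plus strand) had 601 and 529 CPM in RBM25 sh, against 407 and 328 CPM in Control sh. Both RBM25 sh libraries lay above both Control sh libraries. The log2 fold change was 0.62 ± 0.27, or 1.54-fold, and missed the threshold (edgeR adjusted p = 0.218). The ratio of APC to CTNNB1 in FPKM was 0.225 and 0.195 in RBM25 sh and 0.193 and 0.114 in Control sh, with an exact permutation p of 0.333. Counts per gene do not separate the mutant CTNNB1 transcripts from the normal ones.

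The TCF and LEF factors bring beta-catenin to DNA, and HCT116 expressed mainly TCF7L2. TCF7L2 (TCF4 in the older literature, ENSG00000148737, chromosome 10, 112950250 to 113167678, plus strand) had 187 and 189.7 CPM in RBM25 sh and 182 and 131 CPM in Control sh. The upper Control sh library was close to both RBM25 sh libraries, and the log2 fold change of 0.26 ± 0.28 was not called (edgeR adjusted p = 0.634). TCF7 (ENSG00000081059, chromosome 5, 134114711 to 134151865, plus strand) had 29.7 and 31.3 CPM in RBM25 sh and 26.6 and 25.8 CPM in Control sh. Its values did not overlap but differed by only 0.22 ± 0.28 on the log2 scale (edgeR adjusted p = 0.699). TCF7 shares 210 exonic bases with SKP1 on the opposite strand, which had 3160 and 2511 counts in RBM25 sh and 2112 and 1764 counts in Control sh. Since no strand setting is stated, the value of TCF7 is uncertain.

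LEF1 was not detected above the floor. LEF1 (ENSG00000138795, chromosome 4, 108047545 to 108168956, minus strand) had 0 and 1 counts in RBM25 sh and 0 and 0 counts in Control sh. A count of 0 allows up to 3 counts per library, which is 0.177 to 0.193 CPM at these depths and covers counting error only. No fold is given, since both groups are under that floor.

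With TCF7L1, the family's remaining member, the 4 genes could be set side by side as shares of their summed FPKM. TCF7L2 made up 79.3% and 77.8% in RBM25 sh and 77.2% and 70.9% in Control sh. TCF7L1 held 12.3% and 13.5% in RBM25 sh and 15.2% and 19.7% in Control sh, and TCF7 held 8.43% and 8.59% in RBM25 sh and 7.55% and 9.35% in Control sh. By FPKM the order was the same in all 4 libraries. As shares of summed counts TCF7L2 still led, but TCF7 exceeded TCF7L1 in all 4. TCF7 then held 12.6% and 12.9% in RBM25 sh and 11.5% and 14.3% in Control sh. TCF7L1 held 8.05% and 8.90% in RBM25 sh and 10.1% and 13.2% in Control sh. The order of TCF7 and TCF7L1 thus depends on gene length. The TCF7 to TCF7L2 ratio was 0.106 and 0.110 in RBM25 sh, within the 0.0978 and 0.132 of Control sh (exact permutation p = 1).

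The feedback inhibitors did not move together. DKK1, a secreted protein that blocks the LRP5 and LRP6 co-receptors, had more counts in Control sh, while the receptor-removing ubiquitin ligases RNF43 and ZNRF3 had more in RBM25 sh. None of the 3 was called by edgeR, DESeq2 or limma-voom, and ZNRF3 alone had an unadjusted p under 0.05 (0.0286, edgeR).

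DKK1 had the highest FPKM of the 10 genes in every library, at 66.6 and 63.6 FPKM in RBM25 sh and 102 and 86.2 FPKM in Control sh. This rank depends on the deposited gene lengths, 2206 bases for DKK1 and 11927 for CTNNB1. By counts, CTNNB1 was the higher of these genes in every library. DKK1 (ENSG00000107984, chromosome 10, 52314296 to 52318042, plus strand) had 145.4 and 145.8 CPM in RBM25 sh, against 233 and 198 CPM in Control sh. Both RBM25 sh libraries lay below both Control sh libraries and agreed closely with each other. The log2 fold change was −0.57 ± 0.27, or 1.48-fold lower, and missed the threshold (edgeR adjusted p = 0.256). DKK1 shares 212 exonic bases with PRKG1-AS1 on the opposite strand, which had 14 and 17 counts in RBM25 sh and 35 and 32 counts in Control sh.

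DKK1 is itself a WNT target, and its promoter is printed because it was the only one of 8 members with a window to hold 2 matches to the TCF and LEF core motif. The motif was searched as CTTTG followed directly by 2 bases that are each A or T, on both strands, in RefSeq windows (GRCh38.p14) from 250 bases before to 50 bases after each gene start. The tables held 13 such windows for 8 members, and none for AXIN2 and ZNRF3. A match was present in 3 of the 13 windows, those of DKK1, TCF7 and TCF7L2, and in 13.8% of all 35116 windows; 1.57% of all windows held 2 or more matches. In DKK1 the matches begin 95 and 76 bases before the start. In TCF7 the match begins 50 bases before a start, on the reverse strand, and in TCF7L2 it begins 133 bases before a start. Both of these starts are internal to the gene. Below are the 250 bases upstream of DKK1 (chr10:52314031-52314280, plus strand), 47 bases of the TCF7 window (chr5:134123548-134123594, plus strand) and 47 bases of the TCF7L2 window (chr10:113126480-113126526, plus strand), with the matches in capitals. A match is a description of the letters, and no binding was measured.
DKK1: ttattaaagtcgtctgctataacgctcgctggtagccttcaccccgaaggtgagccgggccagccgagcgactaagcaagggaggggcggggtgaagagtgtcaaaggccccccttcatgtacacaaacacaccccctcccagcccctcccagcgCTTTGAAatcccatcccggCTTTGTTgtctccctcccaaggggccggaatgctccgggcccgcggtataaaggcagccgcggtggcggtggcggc
TCF7: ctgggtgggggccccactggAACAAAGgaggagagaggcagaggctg
TCF7L2: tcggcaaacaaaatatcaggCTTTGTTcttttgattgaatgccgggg
The 3 genes with a match did not share a direction: the log2 fold change was −0.57 for DKK1, 0.22 for TCF7 and 0.26 for TCF7L2, none of them called.

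Both ligases add ubiquitin to Frizzled receptors. ZNRF3 (ENSG00000183579, chromosome 22, 28883592 to 29057487, plus strand) had 50.3 and 58.2 CPM in RBM25 sh, against 32.3 and 34.4 CPM in Control sh. The gap between the groups exceeded the distance between replicates, with a log2 fold change of 0.70 ± 0.27 (1.63-fold, edgeR adjusted p = 0.180, not called). On the minus strand of chromosome 17 (58352500 to 58417595), RNF43 (ENSG00000108375) had 51.9 and 58.7 CPM in RBM25 sh and 41.0 and 47.6 CPM in Control sh. Its groups lay close, and the log2 fold change of 0.32 ± 0.27 missed the threshold (edgeR adjusted p = 0.536). RNF43 shares 4326 exonic bases with AC004687.2 on the same strand and 1521 with TSPOAP1-AS1 on the opposite strand, both with under 40 counts per library, so its value is uncertain. The RNF43 to ZNRF3 ratio in FPKM was 0.958 and 0.938 in RBM25 sh, against 1.18 and 1.28 in Control sh (exact permutation p = 0.333). By counts RNF43 was slightly the higher in RBM25 sh too, at 774 and 922 against 750 and 913 for ZNRF3. Which ligase led in RBM25 sh thus depends on gene length.

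Ordered by mean FPKM, the members ran DKK1, CTNNB1, TCF7L2, APC, ZNRF3, RNF43, AXIN2, AXIN1, TCF7 and LEF1 in RBM25 sh. In Control sh the order was DKK1, CTNNB1, TCF7L2, RNF43, AXIN1, APC, ZNRF3, TCF7, AXIN2 and LEF1. Both orders depend on the deposited gene lengths. The ranges of neighbours overlapped for ZNRF3 with RNF43 and for AXIN1 with TCF7 in RBM25 sh, and for the neighbours from RNF43 through AXIN1 and APC to ZNRF3 in Control sh. AXIN2 stood 7th in RBM25 sh and 9th in Control sh, apart from its neighbours in both groups, with 5.91 and 6.77 FPKM in RBM25 sh and 1.57 and 1.69 FPKM in Control sh.

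Differences between replicates followed GC content, the share of G and C in a gene's longest transcript. Replicate 2 was the higher library for most GC-rich genes and the lower one for most AT-rich genes. The Spearman correlation of that difference with GC content, across 12990 genes, was 0.77 within RBM25 sh and 0.79 within Control sh. The log2 fold change of RBM25 sh over Control sh correlated at −0.27 with GC content over the same genes, which are not independent replicates. APC, the most AT-rich member at 39.6% GC, differed by −0.39 between replicates 2 and 1 of RBM25 sh and by −1.08 between those of Control sh on the log2 scale. AXIN1, the most GC-rich at 63.8%, differed by 1.04 in RBM25 sh and by 0.76 in Control sh. AXIN2 at 53.1% GC differed by only 0.27 and 0.11, and ZNRF3 at 53.5% by 0.21 and 0.09, in RBM25 sh and Control sh. The 2 members with the widest replicate spread were thus those at the ends of the GC range.

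**Figure D3:**
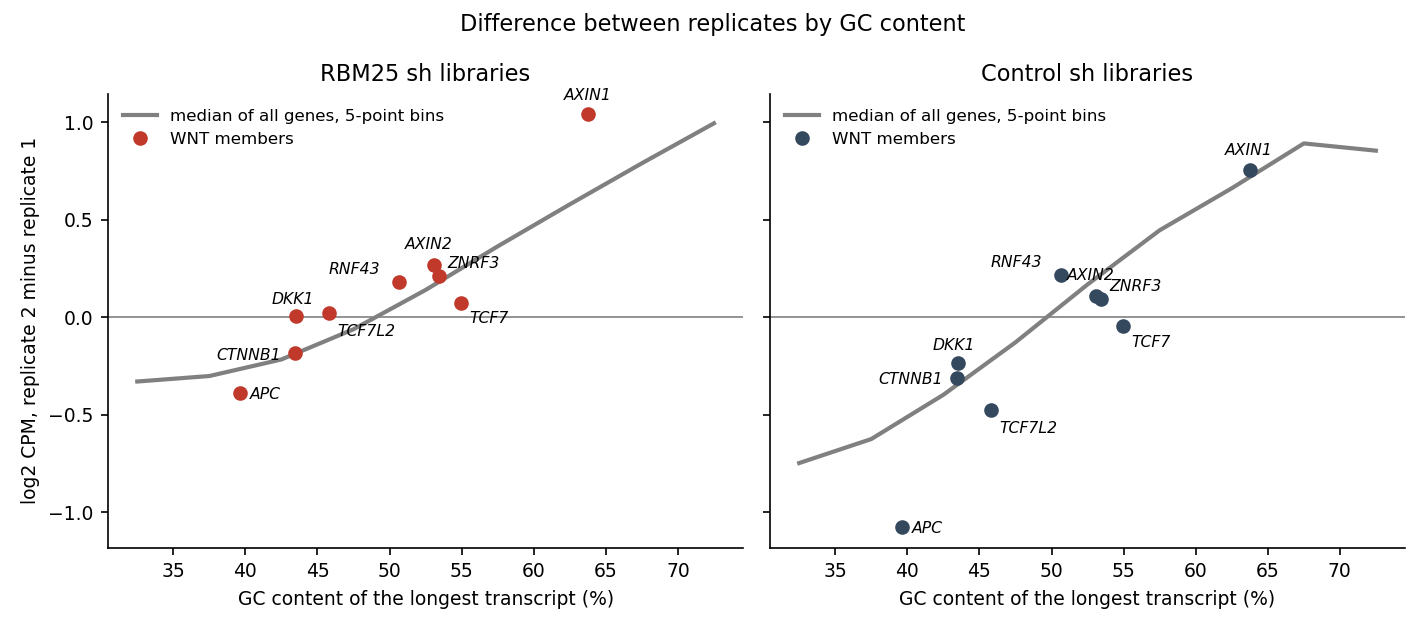
Difference in log2 CPM between replicate 2 and replicate 1 against GC content (%), for the RBM25 sh libraries (left) and the Control sh libraries (right), with points for the 9 tested members and a grey line for the median of all genes in bins of 5 percentage points. In both groups AXIN1 (63.8% GC) is at the top (1.04 and 0.76) and APC (39.6% GC) at the bottom (−0.39 and −1.08).

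When the smooth GC trend of each library was removed, the members' log2 fold changes kept their direction and their SEs became smaller. This step takes out any GC-related difference between the groups along with that between replicates. It called 5 of the 9 members, 4 higher and 1 lower, where 28.1% of all genes tested were called, 12.8% higher and 15.3% lower. AXIN2 was at 2.02 ± 0.16 (edgeR adjusted p = 1.50e-04).

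The 4 others called then had not been called before. APC was at 0.91 ± 0.18 (edgeR adjusted p = 0.00684), with 120.1 and 110.5 GC-corrected CPM in RBM25 sh and 73.1 and 49.4 in Control sh. ZNRF3 was at 0.81 ± 0.14 (edgeR adjusted p = 0.00355), with 55.6 and 56.2 in RBM25 sh and 33.7 and 30.3 in Control sh. Both kept the call when any 1 library was left out of the corrected fit. CTNNB1 was at 0.53 ± 0.14 (edgeR adjusted p = 0.0214) and DKK1 at −0.65 ± 0.13 (edgeR adjusted p = 0.00756). Both lost the call without either RBM25 sh library, with adjusted p-values of up to 0.253 for CTNNB1 and 0.179 for DKK1. Over all 21 alternatives the adjusted p ran from 3.11e-09 to 0.756 for APC, from 1.73e-06 to 0.776 for ZNRF3, from 2.17e-04 to 0.979 for CTNNB1 and from 2.91e-05 to 0.936 for DKK1.

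The remaining 4 were not called after the correction. RNF43 stood at 0.37 ± 0.13 (edgeR adjusted p = 0.0634), TCF7 at 0.34 ± 0.17, AXIN1 at −0.34 ± 0.16 and TCF7L2 at 0.22 ± 0.14. GC-corrected AXIN1 had 24.2 and 31.7 CPM in RBM25 sh and 35.7 and 35.6 CPM in Control sh, so that its groups no longer overlapped. In GC-corrected CPM the groups did not overlap for 9 of 9 members, where 66.5% of all genes tested did not. With a minimum change of 1.5-fold asked for, AXIN2 alone was called among the members, before and after the GC correction, where 0.951% and 6.09% of all genes tested were called.

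**Figure D4:**
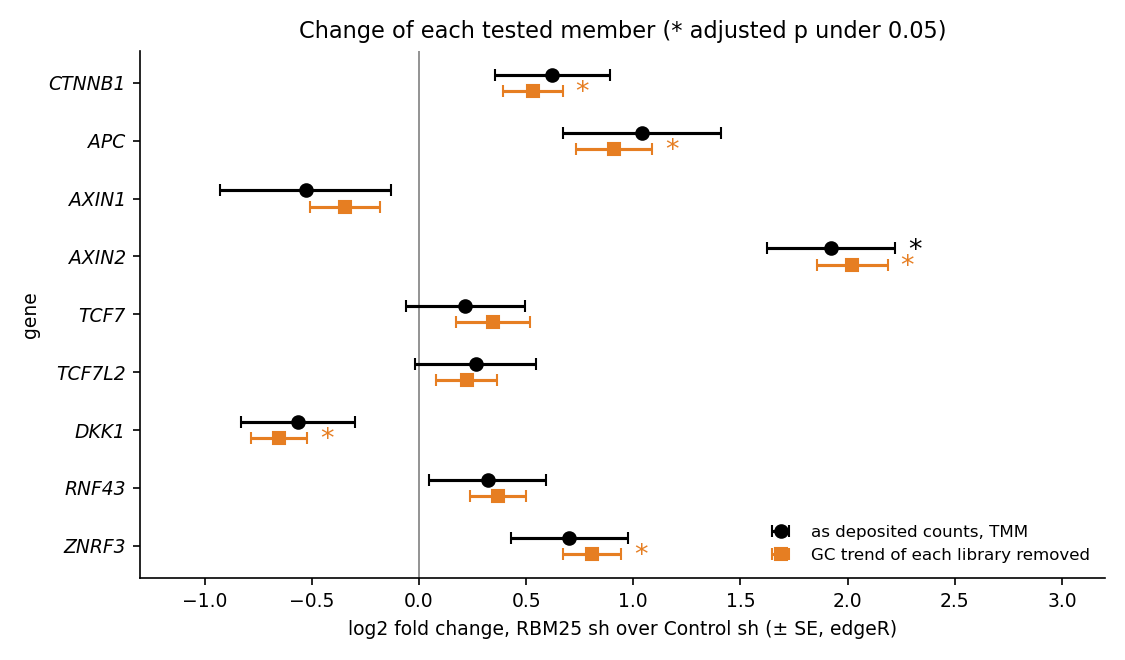
Log2 fold change of RBM25 sh over Control sh (± SE, edgeR) of the 9 tested members, from the counts as deposited with TMM scaling (black circles) and after each library's GC trend was removed (orange squares), with an asterisk where the adjusted p over all genes was under 0.05. AXIN2 stands apart at 1.92 and 2.02, and APC, CTNNB1, ZNRF3 and DKK1 carry an asterisk only after the GC correction.

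The rest of the pathway was followed in 8 lists of 132 genes, of which 103 were tested and 19 had no count in any library. Among these 103 genes 2 were called higher and none lower (1.94%, beside 3.05% of all genes tested), both in the list of WNT target genes. At an unadjusted p under 0.05 there were 8 higher and 12 lower of the 103, near the shares of 7.92% and 13.5% over all genes tested, which also stand behind the counts for single lists. DESeq2 called 5 higher and 3 lower, beside 2.4% and 4.34% of all genes tested, and limma-voom 2 higher and none lower, beside 0.522% and 1.8%. With the GC trend removed 14 were called higher and 13 lower, 26.2%, near the 28.1% of all genes tested. That 28.1% was made up of 12.8% higher and 15.3% lower, which also stand behind the GC-corrected counts for single lists. The lists were read by their counts and medians, beside a median of −0.04 over all genes tested.

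WNT target genes other than the members had 2 of 19 called higher and none lower, and a median of 0.10. Of all genes tested 0.653% were called higher and 2.40% lower. The list was chosen with earlier results of these data known, so its shares, before and after the GC correction, are descriptions only. An unadjusted edgeR p under 0.05 was found for 4 higher and 2 lower of the 19 (7.92% and 13.5% of all genes tested). DESeq2 called 4 higher and 1 lower (2.4% and 4.34%), and limma-voom 2 higher and none lower (0.522% and 1.8%). BMP4, a growth factor of the TGF-beta family, had 229 and 263 CPM in RBM25 sh, against 76.1 and 87.4 CPM in Control sh (log2 fold change 1.59 ± 0.27, edgeR adjusted p = 0.0212). CCND1, which encodes the G1 cyclin D1, had 1391 and 1578 CPM in RBM25 sh, against 611 and 477 CPM in Control sh (1.45 ± 0.27, edgeR adjusted p = 0.0265). Without RBM25 sh replicate 1 or 2 the adjusted p was 0.0981 and 0.149 for BMP4 and 0.0674 and 0.139 for CCND1, and with a minimum change of 1.5-fold it was 0.0650 for BMP4 and 0.0858 for CCND1. By limma on log2(FPKM + 1) CCND1 was at 0.0529, and over all alternatives the adjusted p ran from 1.37e-18 to 0.149 for BMP4 and from 4.62e-11 to 0.139 for CCND1.

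After the GC correction 6 of the 19 targets were called higher and 3 lower, 47.4% together. Over all genes tested 12.8% were then called higher and 15.3% lower, 28.1% together. SP5, a zinc finger repressor directly induced by beta-catenin, had 2.95 and 6.31 CPM in RBM25 sh and 0.822 and 1.51 CPM in Control sh and was called then (2.17 ± 0.36, edgeR adjusted p = 0.00315) but not before (adjusted p = 0.0753). The AP-1 subunit gene JUN (1.36 ± 0.17) was also called higher. MYC (−0.59 ± 0.13) and the angiogenic factor gene VEGFA (−0.99 ± 0.13) were called lower, so that targets moved both ways. SP5, JUN, MYC and VEGFA were chosen after their values were seen. The intestinal stem cell targets LGR5, with at most 3 counts in a library, and ASCL2, with 0, were not tested.

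The list of Frizzled receptors and co-receptors, which also holds ROR1, ROR2 and RYK, had 14 tested genes and none called. Their log2 fold changes were 7 positive and 7 negative, with a median of −0.04. At an unadjusted p under 0.05 there were 1 higher and 2 lower of 14 (7.92% and 13.5% of all genes tested), and DESeq2 called 1 in each direction. The receptor gene FZD5 had 10.9 and 14.7 CPM in RBM25 sh, against 28.1 and 27.3 CPM in Control sh (−1.11 ± 0.30, edgeR adjusted p = 0.0788). FZD4 had 10.1 and 8.28 CPM in RBM25 sh, against 24.3 and 16.6 CPM in Control sh (−1.15 ± 0.33, edgeR adjusted p = 0.0874). After the GC correction 3 of the 14 were called higher and 3 lower, FZD4 and FZD5 among the lower. FZD6, named after its values were seen, was among the higher (0.72 ± 0.12, edgeR adjusted p = 0.00351). It had 182 and 157 CPM in RBM25 sh, against 106 and 74.3 CPM in Control sh, and was not called before the correction (0.91 ± 0.29, edgeR adjusted p = 0.117).

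Of 19 WNT ligand genes 13 were tested and none called, with a median of −0.18. WNT16, named after its values were seen, had the highest level of them, at 38.1 and 33.9 FPKM in RBM25 sh and 45.3 and 34.0 FPKM in Control sh, with overlapping groups (−0.18 ± 0.28, edgeR adjusted p = 0.759). By unadjusted p under 0.05 there were 1 higher and 2 lower of 13 (7.92% and 13.5% of all genes tested), and DESeq2 and limma-voom called none. WNT3 had 22.4 and 24.8 CPM in RBM25 sh, against 12.7 and 13.2 CPM in Control sh (0.87 ± 0.29, edgeR adjusted p = 0.131), and was the only ligand called after the GC correction (0.93 ± 0.16, edgeR adjusted p = 0.00435). WNT4, at 1.01 and 0.892 CPM in RBM25 sh and 1.96 and 2.45 CPM in Control sh, was not called in either fit.

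PORCN, the enzyme that attaches the lipid WNT ligands need for secretion, had 4.42 and 6.82 CPM in RBM25 sh, against 12.3 and 13.9 CPM in Control sh (−1.22 ± 0.34, edgeR adjusted p = 0.0838). LGR6, a receptor for R-spondins, had 0.402 and 0.191 CPM in RBM25 sh and 1.45 and 1.67 CPM in Control sh (−2.38 ± 0.66, edgeR adjusted p = 0.0838). These were the 2 of 5 tested genes of the secretion and R-spondin list with an unadjusted p under 0.05 (13.5% of all genes tested were lower at that p). Neither was called by edgeR, DESeq2 or limma-voom before the GC correction. Both were called lower after it (PORCN at −1.06 ± 0.22, edgeR adjusted p = 0.00892, and LGR6 at −2.16 ± 0.65, edgeR adjusted p = 0.0359). LGR6 rests on few counts, 6 and 3 in RBM25 sh and 23 and 30 in Control sh, so the size of its change is uncertain. Neither gene kept the call in every corrected fit without 1 library. The log2 fold change then ranged from −1.23 to −0.906 for PORCN and from −2.997 to −1.49 for LGR6.

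The list of Dishevelled genes, kinases and genes of beta-catenin turnover, tankyrases included, had none of 21 tested genes called and a median of −0.10. By unadjusted p under 0.05 there were 2 higher and none lower of 21 (7.92% and 13.5% of all genes tested), and DESeq2 and limma-voom called none. The 2 were GSK3B, the kinase that phosphorylates beta-catenin, at 209 and 182 CPM in RBM25 sh and 146 and 100.03 CPM in Control sh (0.67 ± 0.29, edgeR adjusted p = 0.225), and the ubiquitin ligase adaptor gene SKP1 (0.68 ± 0.29, edgeR adjusted p = 0.220). Both are AT-rich, at 42.1% and 41.5% GC, and stood at 0.56 ± 0.13 and 0.54 ± 0.13 after the GC correction, where they were called.

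Of 19 nuclear cofactors of beta-catenin edgeR and limma-voom called none and DESeq2 called 1 lower, and the median was −0.18. With an unadjusted p under 0.05 there were none higher and 4 lower of 19 (7.92% and 13.5% of all genes tested). PYGO2, a reader of histone methylation that the adaptor BCL9 links to beta-catenin, had 26.5 and 32.5 CPM in RBM25 sh, against 55.7 and 65.1 CPM in Control sh (−1.03 ± 0.28, edgeR adjusted p = 0.0796). The Groucho-family corepressor gene TLE2 had 19.6 and 26.9 CPM in RBM25 sh, against 35.6 and 58.0 CPM in Control sh (−1.01 ± 0.34, edgeR adjusted p = 0.130). After the GC correction 4 of the 19 were called lower, PYGO2 and TLE2 among them, and 1 higher.

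Among the other WNT inhibitors none of 9 was called, the median was −0.27, and 7 of the 20 listed, among them SFRP1 and WIF1, had no count in any library. NKD1, which antagonises Dishevelled, had 33.4 and 37.1 CPM in RBM25 sh and 25.4 and 29.1 CPM in Control sh (0.37 ± 0.28, edgeR adjusted p = 0.478). It was the 1 gene of this list called after the GC correction (0.45 ± 0.14, edgeR adjusted p = 0.0408). KREMEN1, a receptor for DKK1, had 58.3 and 81.9 CPM in RBM25 sh and 90.1 and 88.5 CPM in Control sh (−0.35 ± 0.28, edgeR adjusted p = 0.517). None of 5 junction partners of beta-catenin was called, and their median was −0.21, with CDH1 at −0.23 ± 0.27 and JUP at −0.40 ± 0.28 among them. Neither list had a gene at an unadjusted p under 0.05 or a call by DESeq2 or limma-voom.

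**Figure D5:**
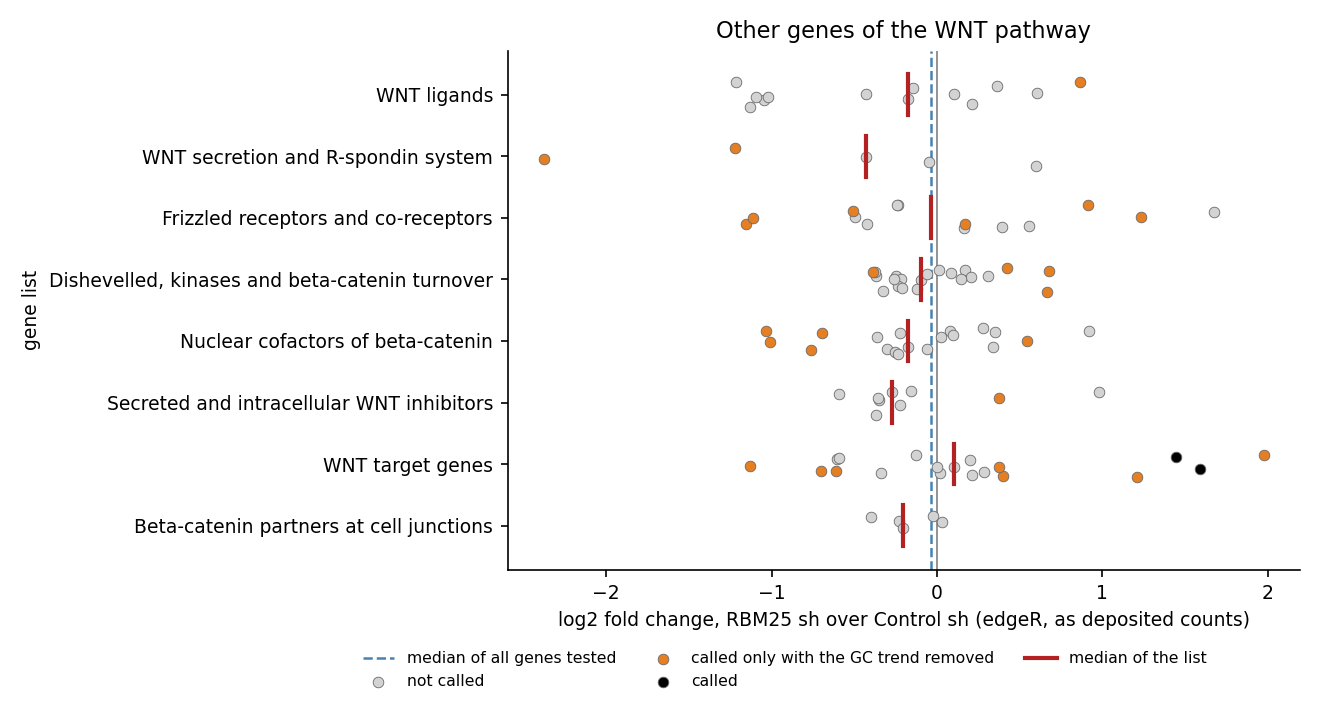
Log2 fold change of RBM25 sh over Control sh for the tested genes of the 8 pathway lists, 1 point per gene, with black points called, orange points called only after the GC correction and grey points not called, a red line at each list's median and a dashed line at the median of all genes tested (−0.04). BMP4 and CCND1 are the 2 black points, and the list medians lie between −0.43 and 0.10.

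By profile over the 4 libraries, the genes nearest to AXIN2 were CEMIP, EPDR1 and COL17A1. The measure was the Euclidean distance between log2 CPM values centred on each gene's mean, among 10086 well expressed protein-coding genes, and it was 0.105, 0.202 and 0.256. CEMIP, which encodes a hyaluronan-binding protein, had 46.2 and 55.7 CPM in RBM25 sh, against 14.2 and 14.2 CPM in Control sh (1.85 ± 0.29, edgeR adjusted p = 0.0157). EPDR1 had 37.6 and 39.7 CPM in RBM25 sh, against 11.1 and 10.4 CPM in Control sh. COL17A1, the hemidesmosome collagen gene, had 22.2 and 27.2 CPM in RBM25 sh, against 5.00 and 6.25 CPM in Control sh. With 4 libraries the likeness describes mainly the size of the group difference.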

How the data were processed

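Per the labels' protocols, total RNA of HCT116 cells was extracted with TRIzol and made into Illumina libraries. Cuffdiff 2.1.1, Cufflinks 2.1.1, TopHat2 2.0.9 and Bowtie2 2.0.6 are listed, with no roles, per the submitters' processing notes. No source used here states the counting tool, strand setting or build. The authors deposited gene counts (whole numbers) and FPKM for each library. Gene positions in the deposited tables equal GENCODE release 29 (GRCh38) for all 58735 genes. The deposited FPKM equal the counts over gene length and 1 factor per library, and were used for levels between genes. The length is 1 value per gene, so orders of genes by FPKM depend on it.

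Counts were fitted with edgeR 4.0.16 (R 4.3.3): filterByExpr, TMM, quasi-likelihood F test on group alone with 2 residual degrees of freedom, two-sided, Benjamini-Hochberg adjustment over 16091 genes and a threshold of 0.05. The SE is the log2 fold change over the square root of F. GC trends were lowess fits (span 0.3) of each library's deviation in log2 CPM (prior count 2) on transcript GC content, available for 99.95% of genes tested, entered as offsets. Fits were also run on simulated counts with known changes. The simulation held no GC difference between the groups, so it does not show how the fits handle one. The alternatives were other scalings, filters and tests (DESeq2 1.42.0, limma 3.58.1), log2 FPKM with pseudocounts of 1 and 0.1, GC trends, a replicate block, a minimum change of 1.5-fold and leaving out each library. Libraries of a group differed by more than counting noise (chi-square per degree of freedom of 24.6 in RBM25 sh and 62.5 in Control sh). All 4 were therefore kept, but this does not tell separate cultures from repeat preparations of the same RNA.

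The members, the lists and the GC correction were chosen with earlier results of these data known. The named genes are the members, RBM25, each list's called genes or else its 2 smallest adjusted p, and for each called member the 3 nearest profiles among protein-coding genes with an average log2 CPM of at least 3. TLE5 was read under its older symbol AES. Figures were drawn with matplotlib 3.10.9.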

Additional observations from a re-analysis of the deposited data

How the results depend on the processing

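All 9 tested members kept the direction of their log2 fold change under all 21 alternatives, and AXIN2 kept its call in each. Of the 189 values for members, 157 kept their side of the threshold and 32 passed it where the fit reported above did not. The members called numbered 1 in that fit, 2 with no filter, 6 with a replicate block (APC, AXIN2, CTNNB1 and ZNRF3 higher, AXIN1 and DKK1 lower), 5 with the GC trend removed, 7 with both, and 1 to 2 without 1 library, or 3 to 7 (3, 3, 7 and 6 without RBM25 sh replicates 1 and 2 and Control sh replicates 1 and 2) with the GC trend also removed. The pathway genes called numbered 2 in that fit, 10 with no filter, 8 by the DESeq2 Wald test, 1 by limma on log2(FPKM + 1), 30 with a replicate block, 27 with the GC trend removed, 38 with both, 0 with a minimum change of 1.5-fold and 7 with that and the GC trend removed. They numbered 0 to 11 without 1 library, or 12, 12, 36 and 37 with the GC trend also removed. Genes called over the whole table numbered 491 of 16091 tested in that fit and 1438 of 30897 with no filter. Of the same 16091, DESeq2 called 1085, and limma called 215 on log2(FPKM + 1) and 268 on log2(FPKM + 0.1). Also of 16091, 5722 were called with a replicate block, 4518 with the GC trend removed and 6332 with both. With a minimum change of 1.5-fold 153 were called, and 980 with that and the GC trend removed. They were 204 to 2389 without 1 library, or 1880, 2188, 6273 and 5604 with the GC trend also removed. Of the genes called, 21.4% were higher, against 45.5% with the GC trend removed, and 491 genes were called in both fits.

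Scaling by library totals alone moved the median of all genes from −0.04 to −0.15 and left the count of members called at 1. The TCF7 to TCF7L2 difference of −0.067 turned to 0.12 with GC-corrected values and ranged from −0.28 to 0.15 without 1 library. The cause was not tested. Without 1 library FZD3 ranged from −0.91 to 0.065, turning positive without Control sh replicate 1. LRP5 ranged from −0.12 to 0.48, turning negative without RBM25 sh replicate 2, and was −0.075 without Control sh replicate 1. Deviations of same-numbered libraries correlated at 0.47 across genes, but the labels do not say what the number marks, so the replicate block stands only as an alternative. Fits with the block, with or without the GC trend removed, gave the lowest adjusted p of RBM25, AXIN2, APC and ZNRF3. AXIN1, not called in the fit reported above, was called lower with the block (edgeR adjusted p = 0.00575, and 0.0483 with the GC trend also removed; 0.00575 to 0.99995 over all alternatives). A fit without 1 library rests on the spread of the group that keeps 2, and the lone library is assumed to vary like it. The GC fits that also leave out a library or ask for 1.5-fold were chosen after seeing the data.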
